A study of Mus musculus with 21 samples.

Results

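Carcinoma-associated fibroblasts (CAF) depleted of Hsp90aa1 were compared with normal mammary fibroblasts (NF) across all genes, to see whether the depletion placed the carcinoma cells nearer to the normal state or further from it. The comparison rests on 6 of the 21 RNA-seq libraries of the series, 3 per group, chosen by their labels. The NF were the mouse line NF1, derived from healthy mammary tissue of the FVB/n strain, and received a control siRNA. The CAF were the mouse line CAF1, grown from a mammary carcinoma of the MMTV-PyMT model, in which the mouse mammary tumour virus promoter drives the polyoma middle T oncogene in the mammary epithelium, and received a pool of siRNAs against Hsp90aa1. Control CAF, the same line with the control siRNA (3 libraries), placed each value between the untouched carcinoma state and the normal one, and CAF with siRNAs against Hsp90ab1 (3 libraries) are given beside some values. All 4 groups were grown in DMEM with 10% serum, transfected with 100 nM siRNA at 60% confluence, given vehicle in place of TGFb1, and lysed 48 h after transfection. Each origin is represented by 1 numbered line, so the tumour origin and the line cannot be told apart, and the labels do not say whether the 3 libraries of a group came from separate cultures, so p-values measure only the spread between libraries.

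HSP90 is a cytosolic chaperone that folds and holds ready a broad set of client proteins, among them kinases, steroid receptors and transcription factors, with the help of co-chaperones. Mammals make a stress-inducible form, HSP90 alpha (Hsp90aa1), and a constitutive form, HSP90 beta (Hsp90ab1), from separate genes. Fibroblasts of a carcinoma typically carry more contractile protein and lay down more collagen than fibroblasts of the healthy gland, and TGFb and mechanical signals through YAP and SRF are known to drive that state.

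The NF, control CAF and Hsp90aa1-depleted CAF libraries held 35087180 to 70421576 estimated counts. The share of mitochondrial genes was 4.30% in NF replicate 1 and between 1.70% and 2.56% in the other 8 of these libraries, and its part in the results below was not tested beyond leaving that library out. Both lines carried fibroblast markers. The 11 markers summed to 4835 to 6838 TPM (a level corrected for transcript length and library size) in NF and to 23547 to 25509 TPM in the depleted CAF. Each was above 0 in every library of both, except Lum, which was at 0 in NF replicate 2. Thy1, Fap and Lum were nearly absent in NF, at 0.0503 to 0.611, 0.0738 to 0.324 and 0 to 0.0552 TPM. In the depleted CAF they were at 259 to 282, 0.493 to 2.09 and 0.211 to 0.640 TPM. Dcn, the small proteoglycan decorin, was the one marker lower in the depleted CAF than in NF, at 16.2 to 30.2 TPM against 346 to 434 TPM. The 9 epithelial markers summed to 0.595 to 0.656 TPM in NF and 15.8 to 22.2 TPM in the depleted CAF, of which Krt19 alone made 15.6 to 22.1 TPM. The 8 endothelial markers summed to 50.8 to 59.1 TPM in NF, of which Eng made 50.3 to 58.8 TPM, and to 3.65 to 4.39 TPM in the depleted CAF. The immune, pericyte and adipocyte lists stayed below 7.15 TPM in every one of these groups, and the glia and neuron list reached 24.0 TPM in NF. Ptprc, Epcam and Adipoq, which define leukocytes, epithelium and fat cells, did not have enough counts to be tested.

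The targeted gene, Hsp90aa1 (ENSMUSG00000021270, GRCm38 chromosome 12, 110690605 to 110702728, minus strand), was measured at 122, 85.9 and 58.1 normalised CPM (counts scaled by library size) in replicates 1 to 3 of the depleted CAF. Control CAF had 995, 926 and 726 CPM, and NF had 853, 660 and 604 CPM. The depleted libraries lay far below both other groups, and NF and control CAF overlapped. The fitted log2 difference was -2.99 against NF (SE 0.32, adjusted p = 1.7e-07, edgeR quasi-likelihood test with Benjamini-Hochberg adjustment) and -3.31 against control CAF (SE 0.33, adjusted p = 4.2e-06). Before depletion the gene stood 0.32 log2 units above NF, which did not pass the test (adjusted p = 0.36), so the knockdown moved this gene away from NF. Hsp90ab1 was lower than NF with and without the depletion, at log2 differences of -0.92 and -0.68, and its knockdown difference of -0.24 did not pass (adjusted p = 0.41). Hsp90b1, the HSP90 of the endoplasmic reticulum, and Trap1, that of mitochondria, had knockdown differences of -0.15 and 0.10, with adjusted p of 0.46 and 0.51.

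Across the 15230 genes tested, the depleted CAF lay further from NF than the control CAF did. The distance of a library was taken as the root mean square (RMS) of its log2 CPM differences from the NF mean over all tested genes. It was 1.73, 1.74 and 1.76 in replicates 1 to 3 of the depleted CAF and 1.64, 1.61 and 1.61 in control CAF, so that every depleted library was further away than every control library. The group values were 1.74 ± 0.0174 and 1.62 ± 0.0150 (SD, n = 3 each), a difference of 0.12. The exact two-sided permutation test gave p = 0.1, the smallest p that 3 against 3 libraries can give. For scale, an NF library lay 0.493 ± 0.0629 (SD, n = 3) from the mean of the other NF libraries. CAF depleted of Hsp90ab1 lay at 1.66 ± 0.00704 (SD, n = 3), between the other CAF groups without overlap. In these libraries Hsp90aa1 itself was at 479, 459 and 324 CPM, below every control CAF library. They were 0.0784 nearer to NF than the Hsp90aa1-depleted CAF and 0.0464 further than control CAF, with exact permutation p = 0.1 in both cases.

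The displacement was resolved into a part along the line from NF to control CAF and a part off it. On that line NF is 0 and control CAF is 1, and the line was drawn each time from libraries with other replicate numbers than the library being placed. Hsp90aa1-depleted CAF stood at 1.037, 1.037 and 0.995, and control CAF at 0.986, 0.983 and 0.949, again without overlap. The difference of 0.05 pointed beyond the carcinoma state, away from NF (exact permutation p = 0.1). Without control CAF replicate 3 it was 0.0319 (exact permutation p = 0.2), with the depleted CAF at 0.989. With each replicate number taken as a block, the difference kept its size and the groups overlapped (exact permutation p = 0.2), as they did with a prior count of 0.5 in the log. CAF depleted of Hsp90ab1 stood at 0.997 ± 0.0110 (SD, n = 3), overlapping the Hsp90aa1-depleted group (difference 0.0262, exact permutation p = 0.3). Distance off the line was 0.620 ± 0.127 in the Hsp90aa1-depleted CAF and 0.486 ± 0.0689 in control CAF (SD, n = 3 each), which overlapped (exact permutation p = 0.2). Within each replicate number the depleted library lay further off the line than its control, at 0.543 against 0.503, 0.550 against 0.410 and 0.766 against 0.545. Replicate 3 of the depleted CAF had the largest off-line distance of the 9 CAF libraries, 0.766.

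**Figure D1:**
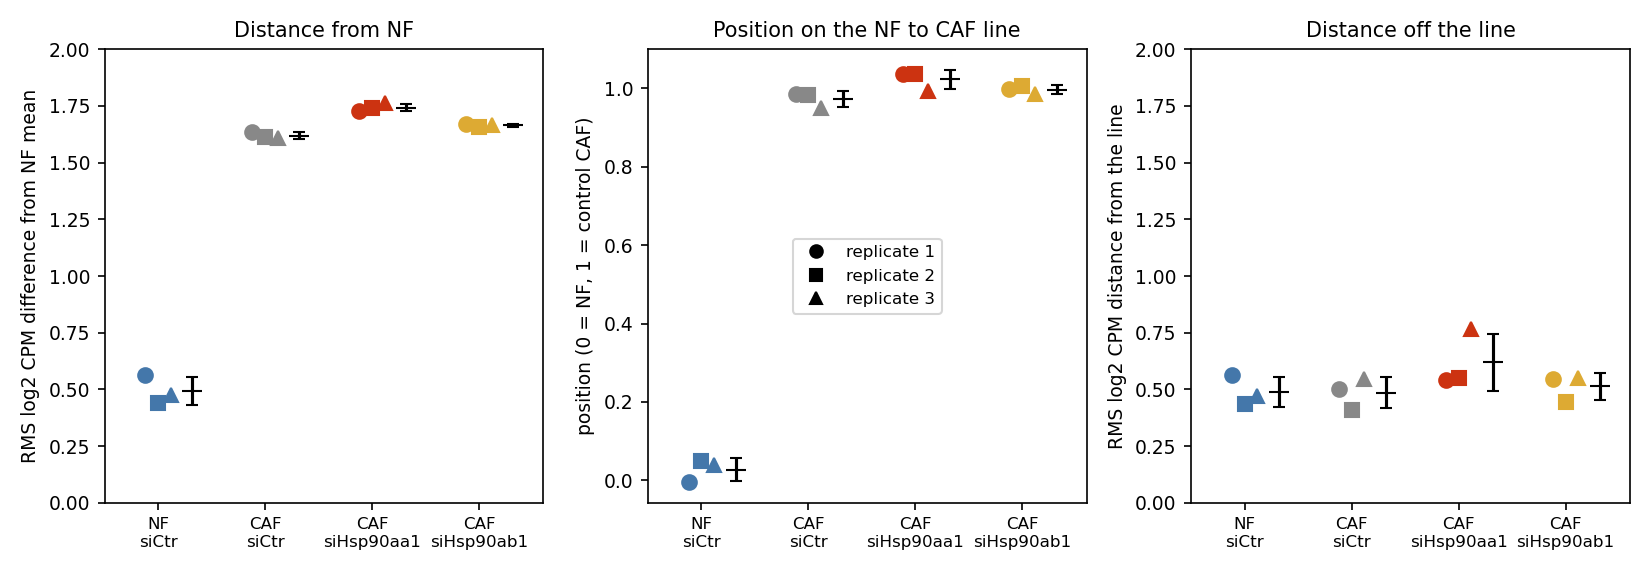
Distance of each library from normal fibroblasts over 15230 genes. Points are single libraries, marked by replicate number, and bars show mean ± SD (n = 3); the left panel gives the RMS log2 CPM difference from the NF mean, the middle panel the position on the NF to control CAF line, and the right panel the RMS distance from that line. In the left and middle panels the 3 Hsp90aa1-depleted CAF libraries sit above the 3 control CAF libraries.

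Against NF, 10359 of the 15230 tested genes (68.0%) passed an adjusted p of 0.05 in the depleted CAF, 5357 higher (35.2%) and 5002 lower (32.8%). In control CAF 9378 genes (61.6%) passed, 4808 higher (31.6%) and 4570 lower (30.0%). Both counts use the same 3 NF libraries. The median absolute log2 difference from NF over all tested genes was 0.65 with the depletion and 0.52 without it. Genes called at more than 2-fold numbered 2694 higher and 2223 lower in the depleted CAF, against 2282 higher and 1614 lower in control CAF.

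The test of the move itself is the difference between depleted and control CAF, which uses no NF library. It called 3867 genes (25.4%), 1898 higher (12.5%) and 1969 lower (12.9%). A called gene was counted as nearer to NF when its absolute fitted difference from NF was smaller with the depletion than without it. By that count 809 genes (5.31% of those tested) were called and nearer. Called and further were 3058 (20.1%), or 79.1% of the knockdown-changed genes. A gene at the NF level in control CAF can only be counted as further, and a large change can overshoot a small difference. An even split is therefore no reference for the shares given here, and the share to expect was not tested. Of changed genes also called in control CAF, 1872 differed more, 431 were no longer called, 257 differed less and 50 changed sides. Among all tested genes, called or not, 63.9% lay further and 36.1% nearer. For the side of NF, the mean of control and depleted CAF was used, so the depleted libraries helped to set it. The share was alike on both sides. Of the 1883 changed genes with that mean above NF, 1486 moved further away (78.9%), and so did 1572 of the 1984 with it below NF (79.2%). Of 485 genes that the knockdown changed by more than 2-fold, 403 were further and 82 nearer (83.1% further). The calls fell to 2468 without control CAF replicate 2 and to 2403 when only the 9 libraries of these 3 groups were fitted. The split was then 1046 higher and 1422 lower, and 945 higher and 1458 lower, and with no filter on low counts it was 1315 higher and 1918 lower. Without control CAF replicate 1 it was 1228 and 1399, and without depleted CAF replicate 3 it was 1254 and 1329. Genes called nearer numbered 444 without control CAF replicate 2, 400 in the 9-library fit, 442 without control CAF replicate 1 and 433 without depleted CAF replicate 3, while the share further stayed between 74.5% and 83.4% over all alternatives.

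**Figure D2:**
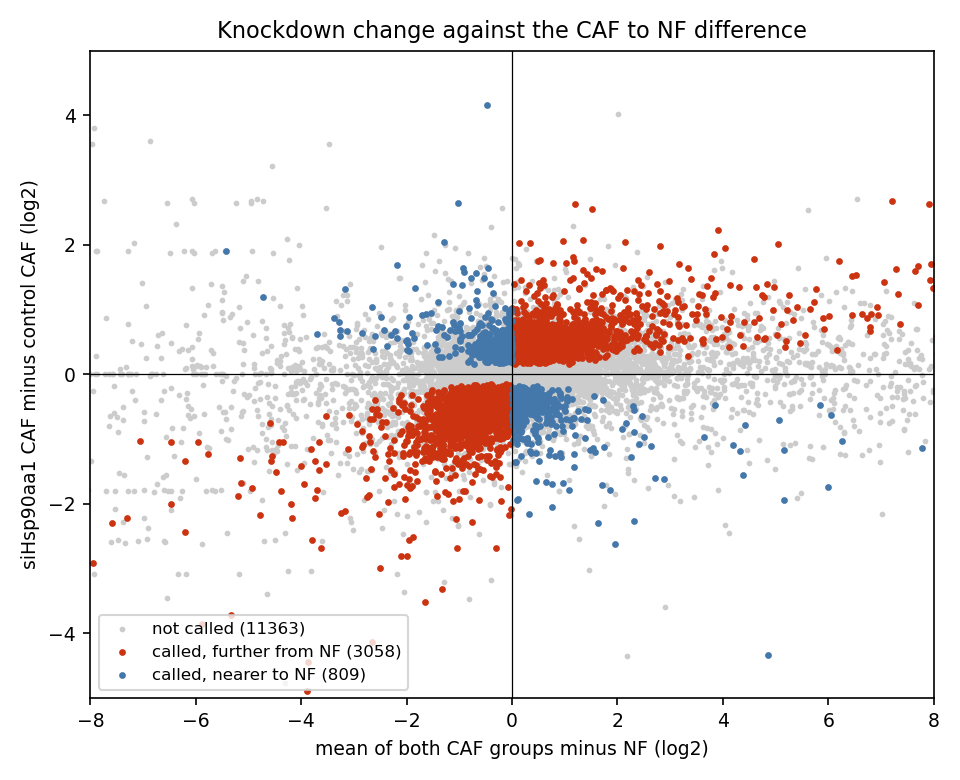
Knockdown change in CAF (log2, depleted minus control CAF) against the mean of both CAF groups minus NF (log2), 1 point per tested gene, with 200 genes outside the plotted range. Red points (3058) were called and lie further from NF, blue points (809) were called and lie nearer, and grey points were not called. By the definition of further and nearer, red can lie only in the upper right and lower left, and blue only in the other quadrants.

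Sorted by which differences from NF passed the test, the 3867 knockdown-changed genes fell into 6 classes. The largest held 1872 genes (48.4%) that already differed from NF in control CAF and differed more, in the same direction, after depletion. A further 1077 genes (27.9%) differed from NF with the depletion but were not called in control CAF. Only 431 genes (11.1%) were called in control CAF and no longer called after depletion, 257 (6.65%) kept a smaller called difference, 50 (1.29%) were called on opposite sides of NF, and 180 (4.65%) were called in neither group. The class no longer called held 228 genes without control CAF replicate 1, 240 without its replicate 2, 259 without depleted CAF replicate 3 and 226 in the 9-library fit. The class on opposite sides held 105 genes with a replicate block and between 29 and 75 when single libraries were left out. The class with a smaller called difference held 467 genes with the block and fell to 145 without control CAF replicate 1, 134 without its replicate 2, 168 without depleted CAF replicate 2 and 133 without depleted CAF replicate 3. The class called in neither ranged from 74 without control CAF replicate 1 to 321 without NF replicate 1.

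The genes that moved nearer to NF by the largest amounts were led by Parvb (chromosome 15, 84232043 to 84315688), which encodes beta-parvin, an adaptor of integrin adhesions. It measured 18.1, 22.4 and 8.51 CPM in NF, 54.2, 49.4 and 25.8 CPM in control CAF and 11.9, 11.3 and 5.55 CPM in the depleted CAF. Every control CAF library was above every NF library, and the depleted CAF overlapped NF from below. Its log2 difference from NF went from 1.40 to -0.76 (adjusted p = 0.1 for the latter) through a knockdown change of -2.16 (SE 0.41, adjusted p = 0.00087). In CAF depleted of Hsp90ab1 the gene stood at 68.2, 63.1 and 29.1 CPM.

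Il33, a cytokine released from damaged cells, was at 6.97, 5.57 and 3.43 CPM in NF, 17.1, 11.9 and 7.28 CPM in control CAF and 5.81, 4.46 and 4.09 CPM in the depleted CAF. Its difference from NF went from 1.19 to -0.15 log2 units, a knockdown change of -1.34 (adjusted p = 0.0033). Mfap3l went from 83.4, 69.5 and 56.1 CPM in control CAF to 27.4, 30.3 and 28.1 CPM, inside the NF range of 15.2 to 32 CPM (knockdown change -1.29, adjusted p = 0.00041). Crebrf, which encodes a regulator of the CREB3 family of stress factors, was low in control CAF and rose past NF by an amount that did not pass the test (0.27, adjusted p = 0.2). It read 26.3, 21.8 and 27.0 CPM in NF, 11.7, 10.7 and 15.5 CPM in control CAF and 29.1, 28.1 and 33.3 CPM after depletion (knockdown change 1.26, adjusted p = 0.00012). Add2, Plin4, Cnnm1, Dgkk, Enpp1 and Kcnk2 complete the 10 largest nearer changes, with knockdown changes of -1.61, 1.58, -1.56, -1.52, -1.35 and -1.28. Each of these 6 lost its call when at least 1 CAF library was left out.

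Among the genes that moved furthest away, apart from Hsp90aa1 itself, was Met (chromosome 6, 17463800 to 17573980), the receptor of hepatocyte growth factor and a known HSP90 client. NF libraries had 125, 124 and 129 CPM, control CAF 87.6, 64.9 and 27.1 CPM and depleted CAF 21.8, 18.0 and 7.13 CPM, with no overlap between any of the groups. Its difference from NF went from -1.07 to -3.00 log2 units (knockdown change -1.93, SE 0.39, adjusted p = 0.0016). Ak4, an adenylate kinase of mitochondria, and Bmper, a secreted regulator of BMP signalling, also fell further below NF, from -1.45 to -3.60 and from -0.49 to -2.37. Dna2, a nuclease and helicase of DNA replication, went from -1.06 to -2.82. On the other side, Myom1, a protein of the sarcomeric M-band, went from 1.82 to 3.8 above NF, Parm1 from 2.89 to 4.75 and Lims2, an adaptor of integrin adhesions, from 5.34 to 7.08. Tcp11l2 and Fbln7, a secreted fibulin, complete the 10. Tcp11l2 went from -0.39 to 1.36, and Fbln7 went from 4.03 to 6.04 but lost its knockdown call without control CAF replicate 1, control CAF replicate 2 or depleted CAF replicate 3.

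Genes carried past NF to its other side included Zfp664, Prkar2b, Fam96a, Nanos1 and Spef1, the 5 largest changes of that class. Zfp664 was at 80.2, 78.1 and 75.4 CPM in NF, 112, 111 and 98.9 CPM in control CAF and 41.6, 35.7 and 32.8 CPM in the depleted CAF, so that the 3 groups did not overlap and NF lay between the CAF groups. Prkar2b, a regulatory subunit of protein kinase A, went from 0.29 above NF to 0.88 below it (log2 -0.88). Tgfbr1, the type I receptor of TGFb, belonged to the same class: it read 36.3, 38.5 and 34.3 CPM in NF, 48.7, 56.9 and 51.0 CPM in control CAF and 26.5, 28.9 and 22.0 CPM after depletion. Its difference from NF turned from 0.52 to -0.50 (knockdown change -1.02, adjusted p = 2.7e-05). Tgfbr2, the type II receptor that pairs with it, moved the other way. It rose from 89.7, 106 and 132 CPM in NF and 490, 535 and 633 CPM in control CAF to 989, 1003 and 1220 CPM (knockdown change 0.95, adjusted p = 0.00014). In CAF depleted of Hsp90ab1, Tgfbr1 was at 52.4, 56.9 and 54.2 CPM.

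Pdia3 and Pappa were among the largest changes in genes that control CAF shared with NF within the test. Pdia3 (chromosome 2, 121413775 to 121438687), a disulfide isomerase of the endoplasmic reticulum, was at 767, 608 and 650 CPM in NF and 934, 886 and 807 CPM in control CAF, where the difference of 0.38 did not pass (adjusted p = 0.081). It read 351, 305 and 226 CPM after depletion, below every other library (knockdown change -1.57, SE 0.19, adjusted p = 2.1e-05). CAF depleted of Hsp90ab1 had 969, 930 and 872 CPM of it. Pappa, a protease that frees insulin-like growth factors, rose from 3.67, 3.23 and 4.76 CPM to 10.9, 12.7 and 14.8 CPM, against 4.27, 3.05 and 3.09 CPM in NF (difference from NF 1.88). Arhgap19 fell to 1.98 below NF (log2 -1.98, knockdown change -1.60).

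**Figure D3:**
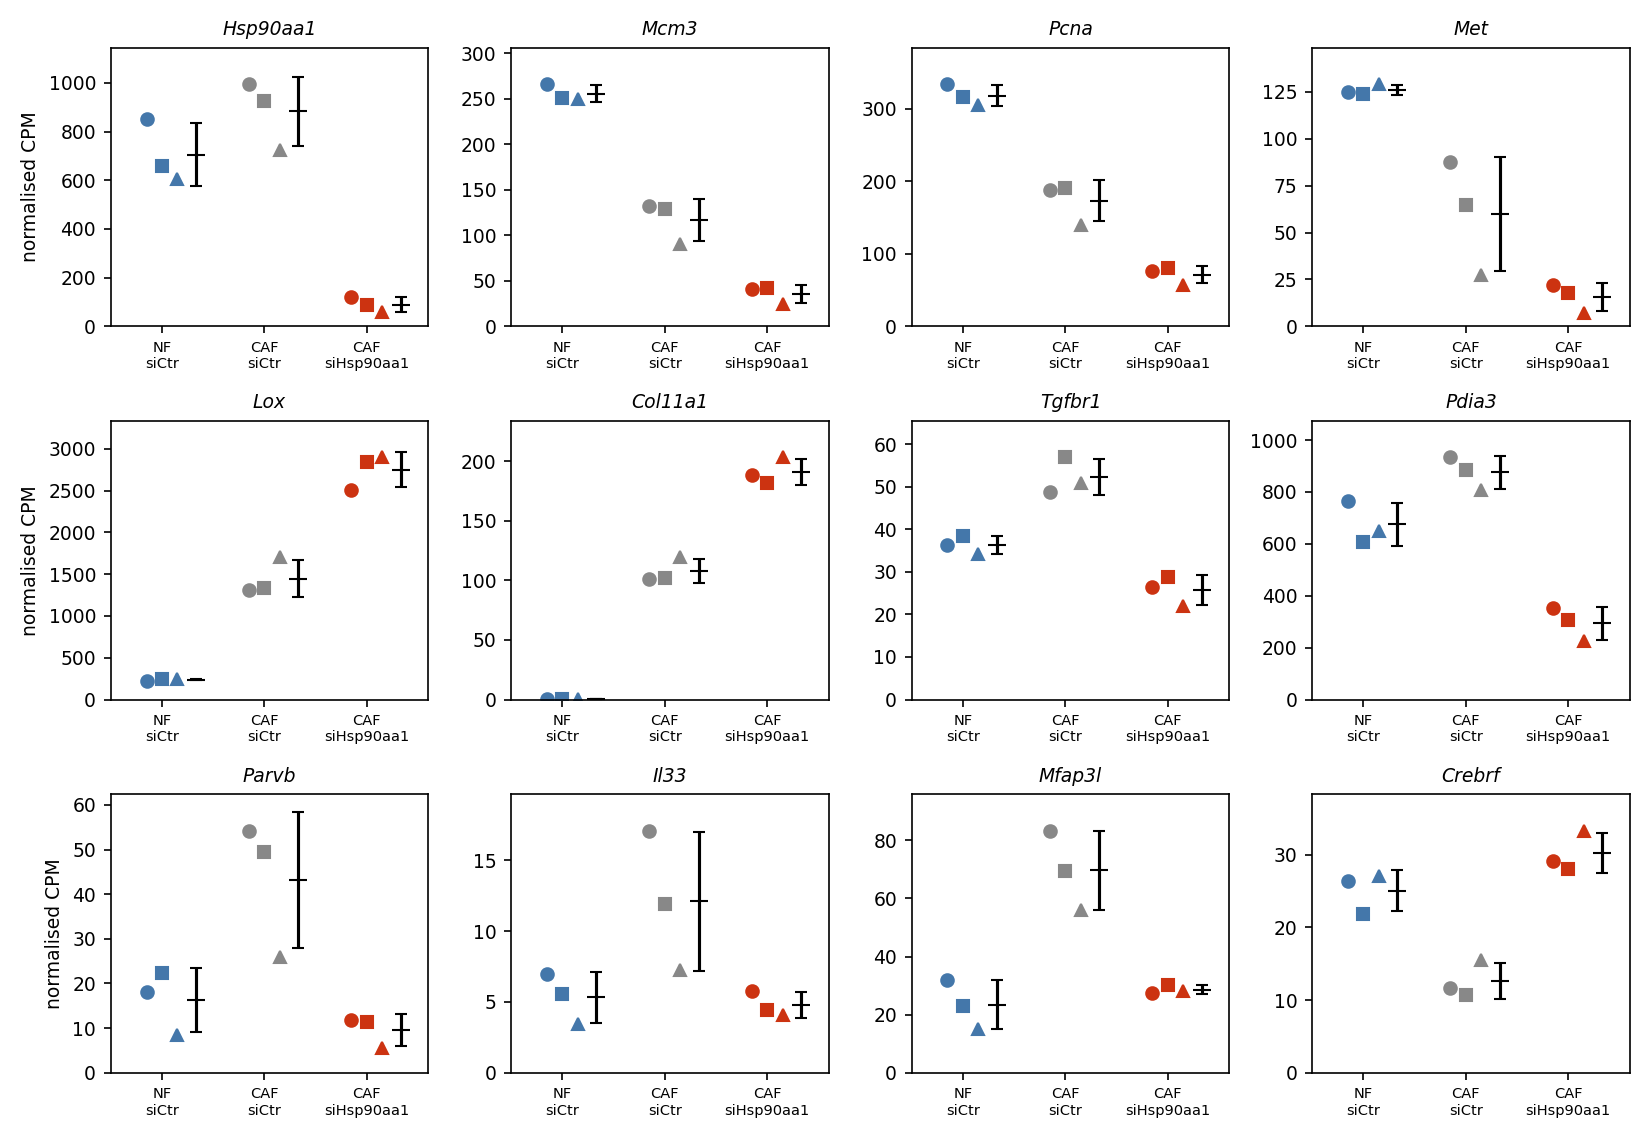
Normalised CPM of 12 named genes in NF, control CAF and Hsp90aa1-depleted CAF; points are single libraries (circle, square and triangle for replicates 1, 2 and 3) and bars mean ± SD (n = 3). Hsp90aa1, Mcm3, Pcna, Met, Tgfbr1 and Pdia3 end below NF, Lox and Col11a1 move further above it, and Il33, Mfap3l and Crebrf end within or close to the NF values, while Parvb ends at or below them.

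The genes highest above NF in the depleted CAF were nearly silent in NF. Gm16485 had 0 counts in all NF libraries and 47.6, 43.0 and 38.7 CPM in the depleted CAF, at least 2298-fold higher when the 3 NF libraries together are given 3 counts. Pgr, the progesterone receptor, had 0, 0.157 and 0.229 CPM in NF, 140, 161 and 210 CPM in control CAF and 343, 318 and 308 CPM in the depleted CAF. All depleted libraries were above all control CAF libraries, which in turn were far above NF, and the knockdown change of 0.92 passed (adjusted p = 0.0088). Gm16485 starts 3179 bases downstream of the end of Pgr on the same strand of chromosome 9 (Pgr 8899833 to 8968611, Gm16485 8971791 to 8975773), and its knockdown change was 1.35 (adjusted p = 9.1e-05). Fbxl7, Rxfp1, the relaxin receptor, Zfp804a, Aldh1a2, which makes retinoic acid, Dmrt2 and Brinp1 also had 0 counts in every NF library and were at least 813-, 503-, 390-, 356-, 372- and 319-fold higher on the same floor. Scg2 and Plcl1 had 1 and 2 counts in NF over the 3 libraries, with ratios of 4405 (95% counting interval 790 to 174024) and 2815 (779 to 23248). Of these 10 genes, Gm16485, Fbxl7, Zfp804a, Pgr and Plcl1 rose with the knockdown (Zfp804a not without control CAF replicate 1 or 2 or depleted CAF replicate 2 or 3, and Pgr not in DESeq2), and the knockdown differences of Rxfp1, Scg2, Aldh1a2, Dmrt2 and Brinp1 did not pass.

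At the other end stood genes that NF express and both CAF groups almost lack. Nos2, the inducible nitric oxide synthase, had 22.9, 17.2 and 12.1 CPM in NF and 0 counts in all depleted CAF libraries, so NF were at least 835-fold higher. Cdh13, a cadherin anchored in the membrane by a lipid, had 12.8, 9.41 and 8.70 CPM in NF and also 0 counts after depletion (at least 495-fold). Control CAF had only 5 and 4 counts of them over 3 libraries, and neither knockdown difference passed (adjusted p = 0.25 and 0.077). Slco4a1, Trim30d, Wasf3, Clip4, Rtn4rl2, Hunk, Sh3rf2 and Ppp1r14c make up the rest of the 10, and of these Clip4 alone had a called knockdown change (adjusted p = 0.015, 20 counts in control CAF and 3 in the depleted CAF). That call was lost without control CAF replicate 1 or 3 or depleted CAF replicate 3.

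Gene lists by function differed in how many of their members moved away from NF. A pair of values given below as from one value to another is the log2 difference from NF in control CAF and then in the depleted CAF. Among the 22 lists the cell cycle list had the largest share of members called and further, 25 of 26. All 26 tested members fell with the knockdown, against 12.9% of all genes, and 25 of them ended called below NF, against 32.8% of all genes. The median member was 0.57 log2 units below NF in control CAF and 1.52 below in the depleted CAF (medians -0.57 and -1.52), while over all tested genes these medians were -0.0049 and 0.02. In single libraries the list median relative to NF was -1.33, -1.33 and -1.82 in depleted CAF replicates 1 to 3 and -0.39, -0.37 and -0.90 in control CAF, so replicate 3 was the lowest of each group. In bulk RNA, fewer cells in cycle and less of these RNAs per cell cannot be told apart. The counts of 26 and 25 were identical with a replicate block, with DESeq2 and in the 9-library fit.

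Subunits of the replicative helicase were among those with the smallest p-values. Mcm3 (chromosome 1, 20802968 to 20820312) was at 266, 251 and 250 CPM in NF, 132, 129 and 90.5 CPM in control CAF and 40.6, 42.1 and 24.0 CPM in the depleted CAF. The 3 groups did not overlap, and the knockdown change of -1.72 (SE 0.18, adjusted p = 6.5e-06) was larger than the control CAF difference of -1.13 that it added to. Pcna, the sliding clamp of DNA polymerases, went from 334, 316 and 305 CPM in NF through 189, 191 and 140 CPM to 76.9, 79.8 and 57.4 CPM (knockdown change -1.28, adjusted p = 6.2e-06). Cdc6, which loads the helicase, fell from -0.61 to -2.26 relative to NF. Some members were at the NF level in control CAF and fell below it only after depletion: Ccnd1, cyclin D1, had differences of 0.01 and -1.40, Cdk1 of -0.02 and -0.79, and Ccnb2 of 0.23 and -0.56. Rrm2, a subunit of ribonucleotide reductase, was the single member that came nearer, from 0.90 above NF to -0.17.

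The promoter of Mcm7, another helicase subunit (236, 226 and 233 CPM in NF, 146, 135 and 110 CPM in control CAF, 73.4, 72.8 and 64.1 CPM in the depleted CAF), is shown because it holds a match to the E2F motif known from replication genes. The stretch lies on GRCm38.p6, chr5:138171995-138172094, minus strand, 211 to 112 bases before the start given by RefSeq, and capitals mark the match:
Mcm7: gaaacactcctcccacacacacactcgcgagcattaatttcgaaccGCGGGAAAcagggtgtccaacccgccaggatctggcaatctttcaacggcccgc
The forms searched were TTTCCCGC, TTTGGCGC and TTTCGCGC on both strands of the 250 bases before each start. They were found for 5 of the 21 cell cycle genes with a RefSeq promoter (Cdk1, Cdc6, Mcm5, Mcm6 and Mcm7) and for 1.78% of the 27025 mouse genes with a promoter in the RefSeq table, which is a description of these windows and not of binding. GENCODE places the start of Mcm7 at 138172422 on the minus strand, so by that annotation the stretch shown lies inside the gene.

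**Figure D4:**
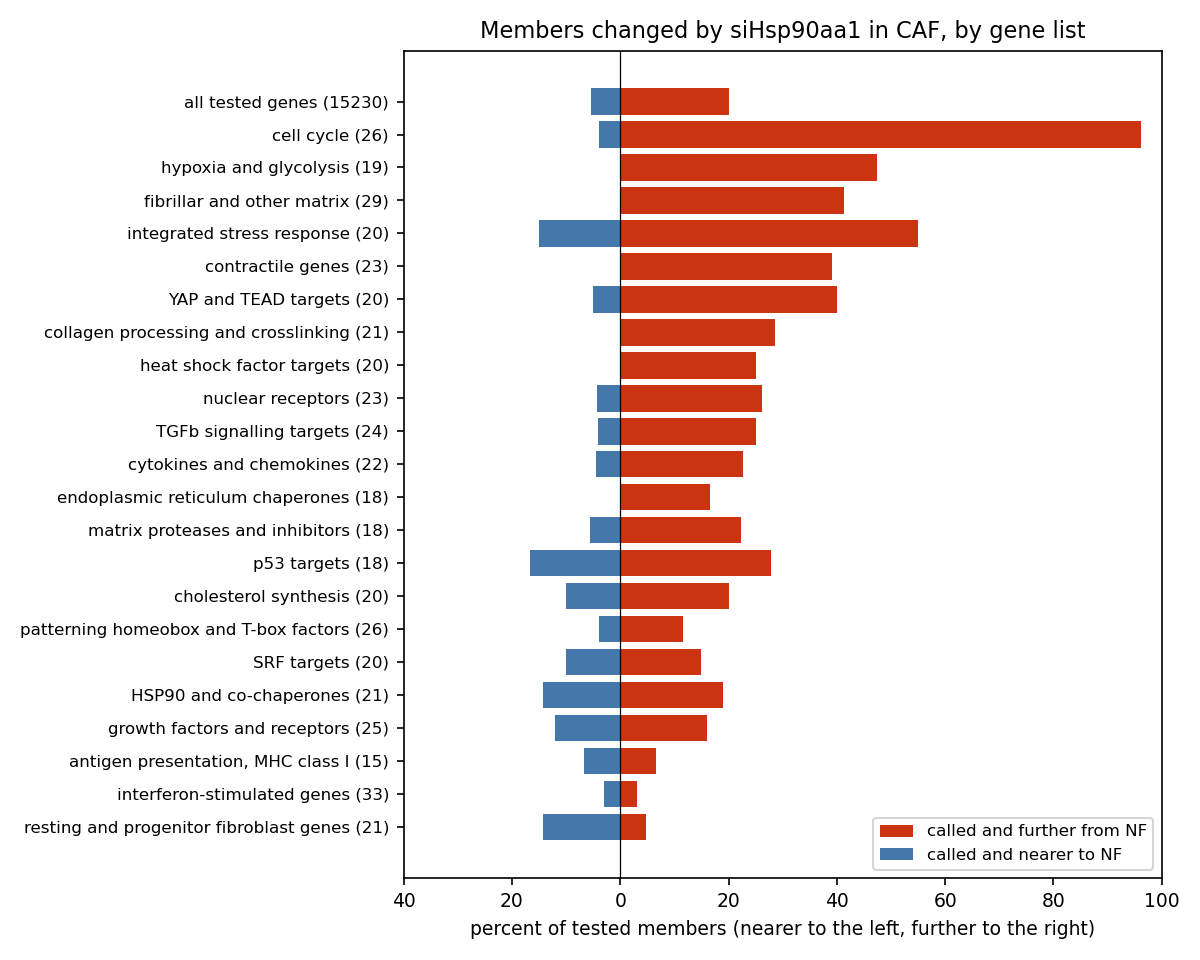
Percent of tested members of each list (number in brackets) that were called in the knockdown and lie further from NF (red, right) or nearer (blue, left), with all tested genes on top. Cell cycle genes reach 25 of 26 further, and interferon-stimulated genes 1 of 33 on each side.

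Genes of glycolysis and of the hypoxia response also moved further down. Of 19 tested, 17 were below NF in the depleted CAF (32.8% of all genes) and 9 fell with the knockdown (12.9% of all genes). All 9 were further from NF, where 20.1% of all genes were called and further. A replicate block called 12 members lower and 1 higher, of which 10 were further and 3 nearer. The list medians relative to NF were -0.40 in control CAF and -0.70 in the depleted CAF. Eno1, enolase, was at 997, 1044 and 952 CPM in NF, 903, 892 and 802 CPM in control CAF and 641, 630 and 573 CPM in the depleted CAF. Pkm, pyruvate kinase, fell from 1889, 1743 and 1792 CPM in control CAF to 1407, 1224 and 1205 CPM, with 2068, 2085 and 1906 CPM in NF. For both genes the depleted libraries were the lowest of the 9. Ldha, lactate dehydrogenase, went from -0.42 to -1.02, and Pgam1 and Pgk1, enzymes of the same pathway, from -0.18 to -0.70 and from -0.41 to -0.81. Hk2, Pfkp and Pdk1 had knockdown differences of 0.23, 0.13 and 0.13, none of which passed. Pfkl, a phosphofructokinase like Pfkp, was called lower (adjusted p = 0.014), a call lost without control CAF replicate 3 or depleted CAF replicate 1.

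Contractile genes, by which activated fibroblasts are recognised, moved further up. In the depleted CAF 19 of 23 were above NF, against 35.2% of all genes, and 19 also in control CAF. The knockdown raised 9, against 12.5% of all genes, and lowered none, and all 9 were further from NF. The list median went from 1.41 to 1.90 above NF. Single-library medians were 2.06, 1.87 and 1.75 in the depleted CAF and 1.53, 1.38 and 1.25 in control CAF, without overlap. Csrp1, a LIM protein of actin bundles, was at 120, 116 and 132 CPM in NF, 308, 268 and 270 CPM in control CAF and 516, 449 and 412 CPM in the depleted CAF (knockdown change 0.70, adjusted p = 1.3e-05). Acta2, smooth muscle actin, was at 110, 140 and 124 CPM in NF, 2814, 2531 and 2306 CPM in control CAF and 3987, 3965 and 3414 CPM after depletion (knockdown change 0.57, adjusted p = 0.041). Its 3 depleted libraries were above all control libraries, but the call was lost when any 1 of the 6 CAF libraries was left out. Tpm1, tropomyosin, and Lmod1, leiomodin, rose by 0.58 and 0.83. Tagln, transgelin, had a knockdown difference of 0.42 that did not pass (adjusted p = 0.1). A replicate block called 12 members higher and 1 lower, of which 12 were further and 1 nearer.

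Matrix genes followed the same course. Of 29 fibrillar and other matrix genes, 25 were above NF in the depleted CAF (35.2% of all genes). In control CAF 24 were already above NF (31.6% of all genes). Dcn alone was called below NF in the depleted CAF. The knockdown raised 12 (12.5% of all genes) and lowered none, and all 12 were further from NF (20.1% of all genes). That count became 18 (17 higher, 1 lower) with a replicate block and 9 in the 9-library fit. Col11a1, a minor fibrillar collagen, was at 0.248, 0.314 and 0.553 CPM in NF, 101.3, 102.3 and 119.6 CPM in control CAF and 188, 182 and 203 CPM in the depleted CAF (knockdown change 0.83, adjusted p = 0.00054). Sparc, a collagen-binding matrix protein, went from 1356, 1245 and 1537 CPM in NF through 4360, 4192 and 4604 CPM to 6618, 6265 and 6776 CPM (knockdown change 0.58). Neither gene's groups overlapped. Fn1, fibronectin, and Fbn1, fibrillin, rose from 1.41 to 1.93 and from 1.59 to 2.5 above NF, the latter not called without control CAF replicate 1 or depleted CAF replicate 3. Col8a1 differed from NF by 0.42 in control CAF, short of the threshold (adjusted p = 0.051), and by 1.41 after depletion. The knockdown calls of Col1a1 and Col1a2, the chains of type I collagen, at 0.52 and 0.54, were both lost without control CAF replicate 1 or 2 or depleted CAF replicate 1 or 3, and that of Col1a2 also without depleted CAF replicate 2.

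Enzymes that process and crosslink collagen showed 18 of 21 members above NF in the depleted CAF (35.2% of all genes). With the knockdown 6 rose (12.5% of all genes), all further from NF (20.1% of all genes), and 4 did so in the 9-library fit. Lox, lysyl oxidase, was at 227, 243 and 244 CPM in NF, 1309, 1332 and 1704 CPM in control CAF and 2513, 2841 and 2900 CPM in the depleted CAF (knockdown change 0.93, SE 0.14, adjusted p = 0.00013). Plod2, a lysyl hydroxylase, went from 87.1, 104 and 184 CPM in control CAF to 218, 246 and 346 CPM, with 19.8 to 22.5 CPM in NF. In each case the 3 groups were ordered NF, control CAF, depleted CAF with no overlap. A replicate block called 9 members. Of 18 matrix proteases and inhibitors 5 rose with the knockdown (12.5% of all genes). Of the 18, 4 were called and further from NF, a share near the 20.1% of all genes. Among these were Mmp14, a membrane-bound collagenase (0.48 to 1.02), and Mmp11 (1.30 to 1.91). A replicate block called 6 members higher and 2 lower, with 4 further and 4 nearer, and the 9-library fit called 2, both further. Mmp3 and Plau, whose products activate matrix breakdown, had knockdown differences of -3.60 and -1.31 that did not pass (adjusted p = 0.058 and 0.095), and their control CAF libraries ranged from 0.153 to 7.43 CPM and from 28.5 to 209 CPM.

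Signalling lists tied to that state differed. Of 24 genes of TGFb signalling and its targets, 17 were above NF in the depleted CAF and 18 in control CAF (35.2% and 31.6% of all genes). The knockdown called 7, of which 6 rose and lay further, shares near the 25.4% called and 20.1% further of all genes. Ski, a repressor of SMAD activity, went from 1.03 to 1.5, Nox4, an oxidase induced by TGFb, from 2.89 to 3.42 and Tgfb3, a ligand, from 0.73 to 1.14, while Tgfbr1 was the single member that fell. Nox4 lost its call when any CAF library other than control replicate 3 was left out, and Tgfb3 without control CAF replicate 3 or depleted CAF replicate 1 or 2. Of 20 targets of YAP and TEAD the knockdown called 8 higher and 1 lower (12.5% and 12.9% of all genes). Of the 20, 8 were called and further from NF (20.1% of all genes). Cyr61, a secreted matrix protein and standard YAP target, went from 1.94 to 2.72, Amotl2 from 0.53 to 1.08 and Lats2, a kinase that restrains YAP, from 0.67 to 1.11. In the 9-library fit the knockdown called 3 of these 20. The calls of Cyr61 and Lats2 were both lost without control CAF replicate 2 or 3 or depleted CAF replicate 1, and that of Lats2 also without depleted CAF replicate 2. Of 20 SRF targets the knockdown called 4 higher and 1 lower (12.5% and 12.9% of all genes). Of these, 3 were further and 2 nearer (20.1% and 5.31% of all genes). DESeq2 and a replicate block each gave 4 further and 2 nearer, and the 9-library fit 1 and 1. Fhl2, a LIM cofactor, rose from 0.40 to 0.95, and Tuft1 came nearer, from -1.34 to -0.66.

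**Figure D5:**
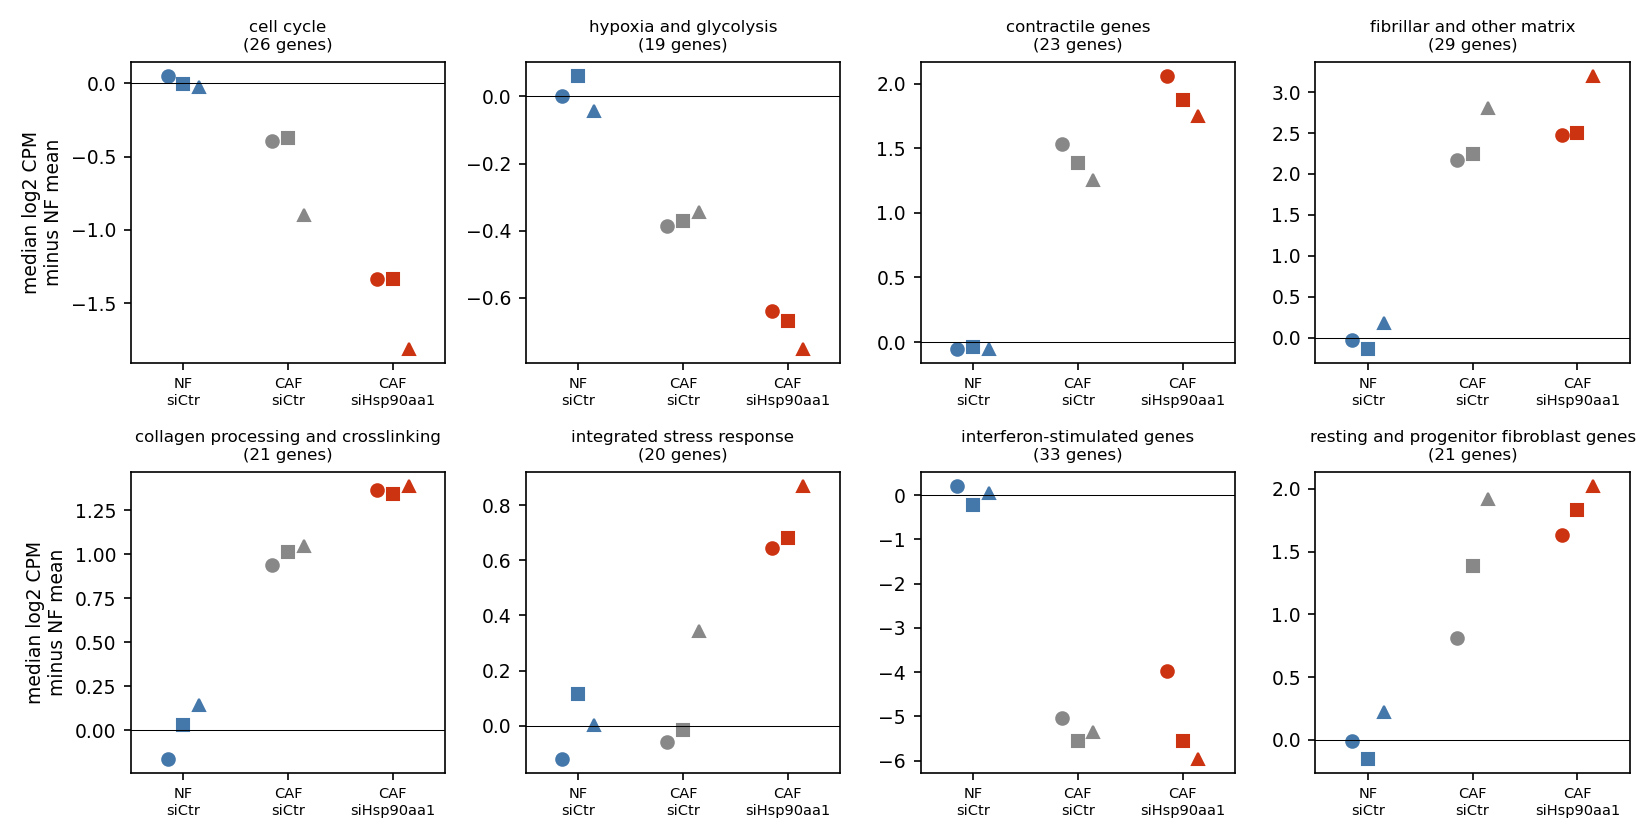
Median over list members of log2 CPM minus the NF mean, per library, for 8 lists; points are single libraries (circle, square and triangle for replicates 1, 2 and 3) and the line at 0 is the NF mean. Cell cycle and glycolysis medians end further below NF after depletion and contractile and integrated stress response medians further above, while interferon-stimulated genes overlap between the CAF groups.

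Genes of the integrated stress response, through which ATF4 raises amino acid transport and synthesis, differed from NF in both directions in control CAF. There 6 of 20 were higher and 5 lower, near the 31.6% and 30.0% of all genes. After depletion the differences were mostly upwards. With the knockdown 14 rose, against 12.5% of all genes, and none fell. Of these, 11 were further from NF and 3 nearer (20.1% and 5.31% of all genes). In the depleted CAF 13 were above NF and 4 below (35.2% and 32.8% of all genes). The list median was 0.10 in control CAF and 0.72 in the depleted CAF, relative to NF. Library medians were 0.64, 0.68 and 0.87 in the depleted CAF and -0.06, -0.02 and 0.34 in control CAF. Slc3a2 and Slc7a5, which together form an amino acid exchanger, were at 341, 326 and 372 CPM and at 465, 516 and 643 CPM after depletion. In control CAF they were at 207, 194 and 231 CPM and at 243, 283 and 380 CPM, close to the NF values of 205, 213 and 179 CPM and 240, 321 and 270 CPM. Trib3 and Ddit3, induced late in the response, went from 1.42 to 2.61 and from 0.46 to 1.35 above NF, and Atf4 itself from -0.15 to 0.23. The call of Trib3 was lost without control CAF replicate 1 or 2 or depleted CAF replicate 3. The 3 members that came nearer were Asns, Psph and Slc7a11, which control CAF carried below NF at -0.45, -0.25 and -2.21. Psph and Slc7a11 lost their calls under the same 3 leave-outs as Trib3 and also in the 9-library fit. Slc7a11 lost its call without depleted CAF replicate 2 as well.

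The promoter of Chac1, a glutathione-degrading enzyme of this response (15.1, 18.5 and 16.8 CPM in NF, 28.1, 26.7 and 42.7 CPM in control CAF, 56.6, 52.3 and 63.5 CPM in the depleted CAF), is shown for its match to the element TGATGNAA, to which ATF4 dimers are known to bind. It lies on GRCm38.p6, chr2:119351003-119351102, plus strand, 239 to 140 bases before the RefSeq start, with the match in capitals:
Chac1: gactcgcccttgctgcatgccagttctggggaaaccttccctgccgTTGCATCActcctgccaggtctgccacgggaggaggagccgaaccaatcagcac
The element was found on either strand for 6 of the 19 list genes with a RefSeq promoter (Asns, Chac1, Pycr1, Slc7a11, Vldlr and Nupr1) and for 3.91% of all 27025 genes with one.

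Interferon-stimulated genes showed the opposite picture, a large difference from NF that the knockdown left mostly as it was. All 33 tested were below NF in the depleted CAF and all 33 in control CAF, at list medians of -4.89 and -5.27. The absolute difference was smaller with the depletion for 25 of the 33, where 36.1% of all genes were nearer, but 2 alone were called in the knockdown: Xaf1, nearer, from -4.01 to -3.38, and Irf1, further, from -1.37 to -1.72. Both calls were lost without control CAF replicate 2 or depleted CAF replicate 1 or 2, among other settings, DESeq2 called 3 members nearer, and a replicate block called 4. The library medians were -3.98, -5.55 and -5.97 in depleted CAF replicates 1 to 3 and -5.05, -5.57 and -5.35 in control CAF, so depleted replicate 1 was the nearest to NF and replicate 3 the furthest. Ifit3, an antiviral protein, was at 280, 171 and 190 CPM in NF, 2.40, 1.53 and 1.93 CPM in control CAF and 9.70, 2.23 and 2.56 CPM in the depleted CAF. Its knockdown difference of 1.33 did not pass (adjusted p = 0.057) and passed with a replicate block (adjusted p = 0.018). Of 15 genes of class I antigen presentation 14 stayed below NF, and the knockdown called Erap1 further, from -1.87 to -2.45, and Tap1 nearer, from -2.78 to -2.09. Erap1 kept its call under every alternative, and Tap1 lost it without any 1 of 5 CAF libraries.

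The Ifit3 promoter is shown because it carries 2 matches to the interferon response element (GAAA, any 2 bases, then GAAA, on either strand), the site of the ISGF3 factor, 184 to 85 bases before the RefSeq start (GRCm38.p6, chr19:34583345-34583444, plus strand), with the matches in capitals:
Ifit3: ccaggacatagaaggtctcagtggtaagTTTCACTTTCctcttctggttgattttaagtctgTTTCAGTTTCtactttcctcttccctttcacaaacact
The element occurred for 15 of the 25 interferon-stimulated genes with a RefSeq promoter and for 3.46% of all 27025 genes with one. Matches of the element overlapped matches of TGATGNAA in 8 of the 27025 promoters and matches of the E2F forms in 5.

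Most cytokines and chemokines were below NF with and without the depletion, 15 of 22 tested in each case (32.8% and 30.0% of all genes). The knockdown lowered 6 (12.9% of all genes) and raised none, and 5 of the 22 were called and further, a share near the 20.1% of all genes. Ccl2, which attracts monocytes, was at 700, 492 and 524 CPM in NF, 96.8, 74.9 and 67.0 CPM in control CAF and 37.3, 31.9 and 21.9 CPM in the depleted CAF (knockdown change -1.39, adjusted p = 0.00073). Ccl7 and Ccl11, related chemokines, went from -1.62 to -2.84 and from -2.17 to -4.32, Cxcl1 from -4.23 to -4.97 and Il6 from -2.80 to -4.59. Cxcl1 lost its call without control CAF replicate 2 or 3 or depleted CAF replicate 3, and Il6 without control CAF replicate 1 or depleted CAF replicate 2 or 3. The sixth, Il33, is the one that came nearer. Among 25 growth factors and receptors the knockdown called 7, of which 4 were further and 3 nearer (20.1% and 5.31% of all genes). Ereg, an EGF receptor ligand, fell beside Met, from -1.08 to -2.59, Fgf10 rose from 1.85 to 2.45, and Pdgfa came nearer, from 0.84 to 0.28, a call lost without 5 of the 6 CAF libraries in turn.

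Among 23 nuclear receptors, several of which are HSP90 clients, 6 were called further and 1 nearer, close to the 20.1% and 5.31% of all genes. Esr1, the oestrogen receptor, was at 17.8, 18.1 and 18.4 CPM in NF, 77.4, 92.5 and 131 CPM in control CAF and 157, 177 and 191 CPM in the depleted CAF (knockdown change 0.80, adjusted p = 0.0021). Nr1d2, a repressor of the circadian clock, fell from 29.3, 28.9 and 31.6 CPM in control CAF to 15.5, 16.4 and 12.8 CPM, with 67.8 to 82.3 CPM in NF. Ahr, the aryl hydrocarbon receptor, was the member that came nearer, from -1.40 to -0.60. Nr3c1, the glucocorticoid receptor, differed from NF by 1.10 and 1.09 without and with the depletion.

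The remaining lists leaned less. Over all tested genes the knockdown called 12.5% higher and 12.9% lower, with 20.1% called and further and 5.31% called and nearer. Of 18 p53 targets the knockdown called 5 further and 3 nearer. Cdkn1a, an inhibitor of cyclin-dependent kinases, rose from 1.93 to 2.74 above NF (not called without control CAF replicate 2), and Fas, a death receptor, came nearer, from -2.93 to -2.05. Of 20 cholesterol synthesis genes 6 fell and none rose, of which 2 were nearer and 4 further. Of 21 genes of resting and progenitor fibroblasts 4 rose, 3 of them nearer: Ly6a went from 102, 105 and 135 CPM in control CAF to 161, 163 and 190 CPM, against 202, 207 and 233 CPM in NF. Ly6c1 and Plin4 were the others, and all 3 calls were lost without control CAF replicate 1 or depleted CAF replicate 3. Called or not, 5 of the 21 were nearer, against 36.1% of all genes, and the list median went from 1.24 to 1.71 above NF. With a replicate block 3 members were called nearer and 3 further. Of 26 patterning factors 1 was called nearer and 3 further (3 and 7 with a replicate block, 1 and 1 in the 9-library fit), and of 18 endoplasmic reticulum chaperones none nearer and 3 further.

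HSP90 co-chaperones were lowered in part, and heat shock genes were called at about the shares of all genes. Of 21 HSP90 genes and co-chaperones 7 fell (12.9% of all genes), Hsp90aa1 included, and none rose. Of the 7, 4 were further from NF and 3 nearer (20.1% and 5.31% of all genes). The 9-library fit called 3 of the 21 lower, and a replicate block called 8 lower and 1 higher. Fkbp4, an immunophilin of steroid receptor complexes, was at 380, 380 and 330 CPM in NF, 230, 221 and 194 CPM in control CAF and 139, 136 and 129 CPM in the depleted CAF, with no overlap (knockdown change -0.67, adjusted p = 4.5e-05). CAF depleted of Hsp90ab1 had 281, 287 and 252 CPM of it, above control CAF. Stip1, which passes clients from HSP70 to HSP90, went from -0.35 to -0.75, a call lost without control CAF replicate 1 or 2 or depleted CAF replicate 2 or 3. Ahsa1, an activator of the HSP90 ATPase, came down to the NF level, from 0.31 to -0.02, a call lost without control CAF replicate 1. Of 20 heat shock factor targets 3 rose and 2 fell, near the 12.5% and 12.9% of all genes. All 5 were further from NF (20.1% of all genes). The 9-library fit called 1 higher and 1 lower, and a replicate block 4 higher and 5 lower. Hspa1a, the inducible HSP70, had a knockdown difference of 0.41 that did not pass (adjusted p = 0.14).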

How the data were processed

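RNA-seq of 21 libraries (7 groups of 3) was analysed, of which 9 enter the comparisons and 3 more are shown beside them. Per the submitters' processing notes, Salmon, STAR and GRCm38 were used, with no version, annotation or strand setting stated. Each gene has an estimated count and a TPM value, as the authors deposited them. Of the deposited expected counts 10.9% were not whole and were rounded. TPM were used for marker levels only. The fit used edgeR 4.0.16 (R 4.3.3) with TMM scaling and filterByExpr by group (minimum count 10, total 15), which kept 15230 of 45706 genes; 1 quasi-likelihood fit without a block held all 21 libraries, and p-values were adjusted by Benjamini-Hochberg over all tested genes, with 0.05 as the threshold. CPM are TMM-normalised; distances were taken on log2 CPM after adding a prior count of 2. Folds against 0 counts used a floor of 3 counts per group, and intervals cover counting error only. DESeq2 1.42.0 was an alternative. The code was tested on simulated data.

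The labels' batch tag gives the replicate number, so equal numbers pair libraries. Residuals of same-numbered libraries correlated with a mean r of 0.320 (7 of 9 pairs over 0.1), against -0.155 for other pairs, over 9205 genes with a mean of at least 10 CPM. Named genes were the HSP90 genes, the 10 highest and 10 lowest against NF, the 10 largest nearer and further knockdown changes, 5 per class, and 3 per list by p, with a mean of at least 5 CPM and no overlap between libraries for the ranked ones; other members of lists were named as examples after their values were seen. Members and lists were chosen with earlier results of these data known. Gene positions are from GENCODE M21 (GRCm38) and promoter sequences from RefSeq (GRCm38.p6).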

Additional observations from a re-analysis of the deposited data

How the results depend on the processing

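In the alternatives run, no distance or position and no called gene among those named by the rule changed direction. Against 10359, 3867 and 809 genes (called against NF, called in the knockdown, and nearer among the latter), the 9-library fit gave 9576, 2403 and 400, and a fold threshold of 2 gave 4917, 485 and 82. Leaving out single libraries gave 9787 to 10459, 2468 to 4504 and 433 to 1145; without NF replicate 1, with the highest mitochondrial share, they were 10127, 4504 and 941, with 79.1% further. With replicate number as a block they were 10945, 5198 and 1195 (77.0% further), and DESeq2 gave 10433, 4336 and 951. The block changed no call of a named gene other than Ifit3, B2m, Pdgfrb, Cdh5 and Cd68, which passed under it. The distance difference ranged from 0.115 to 0.136 across the RMS settings, the replicate block included (0.129). Further distance measures, the median absolute difference and the RMS without the targeted genes, were added after seeing the data and gave differences of 0.126 and 0.1246. Of the checks on single named genes and lists, 1781 stayed on their side of the threshold or near their count, 72 lost a call, 16 gained one and 45 list counts moved by more than 1.5 times. Exact tests of 3 against 3 libraries cannot reach 0.05.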
